A study of Mus musculus with 18 samples.

Results

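The genes described here handle iron in mouse brown adipocytes, and they are 10 of the 54347 genes in the deposited count table. They were chosen by name, as the rows whose symbol is Cp, Heph, Tfrc, Trf, Slc40a1, Slc11a2, Fth1, Ftl1, Ireb2 or Aco1. Ceruloplasmin (Cp) was put forward because its level was lower after isoproterenol in these same libraries, so every value of the 10 genes in that comparison is a description without a test. The comparisons between gapmers are not the contrast for which Cp was put forward and were tested, although earlier results of these data were known when the genes were chosen. Of the 10 genes, 8 passed the filter on low counts, while Heph and Slc40a1 did not.

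All libraries came from wt1-SAM cells, 1 immortalised line of mouse brown preadipocytes that carries the CRISPR activation machinery SAM, which were differentiated and harvested on day 7. On day 4 the cells were reverse transfected with a locked nucleic acid (LNA) gapmer, a short antisense oligonucleotide that directs RNase H to the RNA it pairs with. Every well of 500000 cells received 1.4 µl of a 10 µM stock of the control gapmer ctrlA, which has no intended target, or of LNA1 or LNA2, which are both directed at the long non-coding RNA Gm15551. For each gapmer, 3 libraries were left unstimulated and 3 were made after 24 h in 1 µM isoproterenol, and this gave 6 groups of 3. Isoproterenol stimulates β-adrenergic receptors, as does the noradrenaline that reaches brown fat in the cold. All 6 groups shared the cell line, the transfection and the same differentiation cocktail, which included rosiglitazone, T3, dexamethasone, insulin, indomethacine and IBMX. Nothing in the labels says that the replicates were separate cultures, so p values measure only the spread between these samples. In such bulk RNA, fewer cells of a type and less RNA per cell cannot be told apart.

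Cells take up transferrin-bound iron through the transferrin receptor (Tfrc), and the divalent metal transporter Slc11a2 carries the iron out of the endosome. Surplus iron is stored in ferritin, a shell of heavy (Fth1) and light (Ftl1) chains, or leaves through ferroportin (Slc40a1). The copper enzymes ceruloplasmin and hephaestin (Heph) oxidise exported iron so that transferrin (Trf) can bind it. The iron regulatory proteins, Aco1 (IRP1) and Ireb2 (IRP2), bind a hairpin in messenger RNA, the iron-responsive element (IRE), when the cell is short of iron. Binding in the 5′ UTR blocks translation, whereas binding in the 3′ UTR of Tfrc protects the message from decay.

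The IREs are shown because they separate the messages whose abundance the regulatory proteins are known to set from those of which they set the translation. Annotated UTRs of GRCm38 were searched on the transcript strand for a C, any 5 bases and the loop CAGTGN, where the 5 bases before the loop had to pair with the 5 bases after it (G-U pairs allowed). A match was found in 4 of the 10 genes, and capitals mark the loop. Of all protein-coding genes, 0.661% held a match in the 3′ UTR and 0.148% in the 5′ UTR. The rule allowed no bulge or mismatch in the 5 pairs, so a gene without a match may still hold an IRE. Tfrc held 4 matches on the plus strand, at chr16:32631219-32631247, chr16:32631598-32631626, chr16:32631663-32631691 and chr16:32631710-32631738. Those of Fth1 (chr19:9982732-9982760, plus strand), Ftl1 (chr7:45459779-45459807, minus strand) and Slc40a1 (chr1:45925465-45925493, minus strand) lay in the 5′ UTR.
Tfrc 3′ UTR, site a: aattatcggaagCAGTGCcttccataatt
Tfrc 3′ UTR, site b: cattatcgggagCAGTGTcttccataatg
Tfrc 3′ UTR, site c: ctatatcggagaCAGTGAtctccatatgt
Tfrc 3′ UTR, site d: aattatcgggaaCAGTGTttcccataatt
Fth1 5′ UTR: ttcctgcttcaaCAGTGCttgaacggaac
Ftl1 5′ UTR: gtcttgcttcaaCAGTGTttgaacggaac
Slc40a1 5′ UTR: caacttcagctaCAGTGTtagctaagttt

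The libraries held 9167560 to 19723021 counts, and 14949 genes were tested. The 6 libraries numbered 2 stood apart from the others, with 0.575% to 0.984% of counts on mitochondrial transcripts, against 0.0892% to 0.373% in the libraries numbered 3 and 4, and 2.88% to 14.3% on the single gene CT010467.1, against 0.285% to 1.04%. Libraries with the same number deviated together, so results are also given from a fit with the replicate number as a block where that fit changed the call of a member, another iron gene or a marker gene. The target Gm15551 was near the floor of detection of 3 counts per library, with 0.129 to 0.794 CPM (TMM-scaled counts relative to library size) under ctrlA, 0.0794 to 1.02 CPM under LNA1 and 0.07 to 1.07 CPM under LNA2. These ranges overlapped, so the counts of the target do not check the knockdown. Ucp1, the uncoupling protein of brown fat, was at 0.621 to 1.57 CPM in unstimulated cells and at 9.4 to 16.5 CPM after isoproterenol, a log2 fold change of 3.51 ± 0.17 (SE, edgeR adjusted p = 1.12e-08). Of the marker genes of adipocytes, 8 of 8 averaged at least 1 CPM, as did 6 of 8 markers of brown adipocytes, whereas Dio2 did not exceed 0.34 CPM and Cox8b did not exceed 2.05 CPM.

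Ferritin dominated the iron genes of these cells, and the genes for transferrin, ferroportin and hephaestin were barely detected. On the scale of CPM per kb of annotated exon, which allows levels to be compared between genes, the mean over 18 libraries was 1160 ± 289 (SD) for Ftl1 and 454 ± 67.6 for Fth1. Aco1 followed with 95.6 ± 22.6 CPM per kb and Tfrc with 59.4 ± 19.1 CPM per kb. Slc11a2 (12.6 ± 2.43) and Ireb2 (11.9 ± 1.63) were at a similar CPM per kb, and their ranges over the libraries overlapped. Cp had 1.03 ± 0.685 CPM per kb. Trf (0.141 ± 0.0891), Heph (0.0533 ± 0.0409) and Slc40a1 (0.0281 ± 0.0166) closed the order, with overlapping ranges. With the length of the longest transcript in place of all exons, the mean was more than 1.5 times as high for Fth1 (765), Ireb2 (19.6), Cp (2.16), Heph (0.086) and Slc40a1 (0.0644), and Ireb2 then stood above Slc11a2 (18.2).

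**Figure D1:**
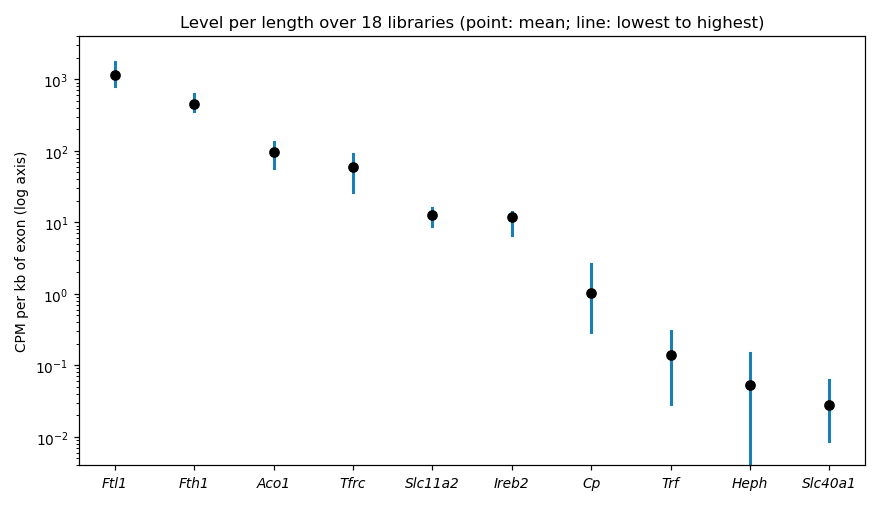
Level of each of the 10 genes in CPM per kb of annotated exon on a log axis, where the point is the mean of 18 libraries and the line runs from the lowest to the highest library. Ftl1 and Fth1 lie at the top, at a mean of 1160 and 454 CPM per kb, and Trf, Heph and Slc40a1 do not exceed 0.304 CPM per kb in any library. The line of Heph starts at the foot of the axis because 1 library had a count of 0.

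Between the genes of the low group the counts were small. Slc40a1 had 59 counts over the 18 libraries and stood at or below 3 counts in 13 of them. Heph had 98 counts and was at or below 3 in 6 libraries, and Trf had 112 counts and was at or below 3 in 5. Such counts limit which differences in ferroportin between libraries can be detected. The 2 ferritin genes, by contrast, were counted 361073 times (Fth1) and 356362 times (Ftl1), and the rows of their processed copies held little, with 746 counts for the larger Ftl1-ps2 row and 20 counts for Fth-ps2.

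Transferrin receptor (Tfrc, chr16:32608920-32632794, plus strand, ENSMUSG00000022797.16), the importer, was the member called between gapmers. In unstimulated cells under ctrlA, Tfrc was at 556, 496 and 425 CPM (replicates 2, 3 and 4). Under LNA1 these were 460, 349 and 307 CPM, and under LNA2 381, 293 and 208 CPM. After isoproterenol the ctrlA libraries had 525, 503 and 452 CPM, those of LNA1 had 404, 279 and 260 CPM, and those of LNA2 had 346, 161 and 209 CPM. With LNA2 all 3 libraries lay below all 3 of ctrlA in both states, which was the case for 1.38% of all genes tested. No member lay above ctrlA in this way, against 2.1% of all genes. With LNA1 Tfrc was lower without overlap after isoproterenol only (in both states, 0.836% of genes were lower without overlap), since the unstimulated LNA1 library numbered 2 lay above the ctrlA library numbered 4.

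Averaged over both states, Tfrc fell with LNA2 to a mean of 266 ± 87.2 CPM (SD, n = 6) from 493 ± 48 CPM with ctrlA. The log2 fold change was -0.90 ± 0.20 (SE, adjusted p = 0.0341, edgeR), and the level was lower in 6 of 6 pairs of libraries with the same number, at 32.1% to 68.6% of the partner. Tfrc was the only 1 of the 8 genes tested that was called in this comparison (adjusted p below 0.05 and absolute log2 fold change above 0.5), in which 1.42% of all genes were called. With the replicate number as a block, the log2 fold change was -0.94 ± 0.10 (adjusted p = 1.73e-05), and 2 of the 8 were called, Tfrc and Cp, in a fit that called 5.53% of all genes. In the libraries numbered 3 and 4 alone it was -1.09 (adjusted p = 0.000492). Without the block the call was not firm. It did not hold in 11 of the 18 leave-one-out fits, namely without each of the 6 ctrlA libraries, the LNA2 libraries numbered 3 and 4 in either state and the unstimulated LNA1 library numbered 3, with adjusted p of up to 0.103 and log2 fold changes from -1.07 to -0.79 over the 18 fits.

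With LNA1, Tfrc averaged 343 ± 77 CPM (n = 6) and was also lower than its ctrlA partner in 6 of 6 pairs, at 55.4% to 82.7% of the partner. The log2 fold change of -0.53 ± 0.20 did not pass the test (adjusted p = 0.537), while the blocked fit gave -0.55 ± 0.10 and a call (adjusted p = 0.00345) where 2.43% of all genes were called, as did the libraries numbered 3 and 4 alone (-0.63, adjusted p = 0.0288). In the unblocked test 0 of the 8 genes were called for LNA1, against 0.442% of all genes. Tfrc was lower with LNA2 than with LNA1 in 6 of 6 pairs, with a log2 fold change of -0.37 ± 0.20 (edgeR adjusted p = 0.668). The blocked fit gave -0.38 (edgeR adjusted p = 0.0186), below the limit on fold, and 0 of the 8 genes were called in that comparison, where 0.923% of all genes were called without and 4.11% with the block. Both gapmers were compared with the same ctrlA libraries. One of the stimulated LNA2 libraries, numbered 3, held the lowest value of both Tfrc (161 CPM) and Ireb2 (63.4 CPM) and the highest of Fth1 (2160 CPM), and without it the log2 fold change of Tfrc for LNA2 was -0.79 (adjusted p = 0.0775).

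**Figure D2:**
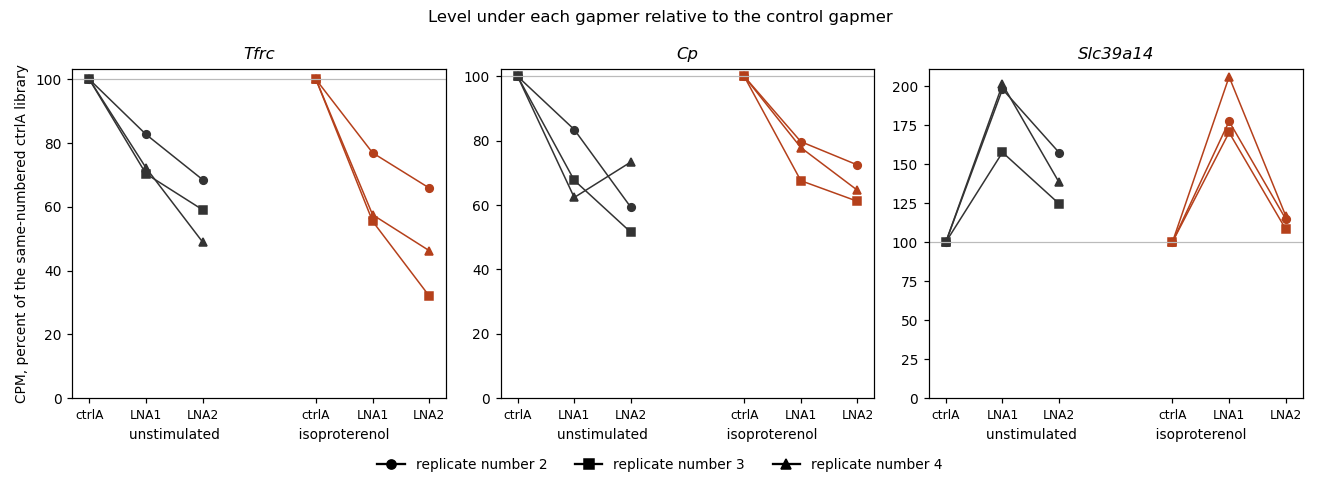
CPM of Tfrc, Cp and Slc39a14 under each gapmer as a percentage of the ctrlA library with the same replicate number, where each line joins 1 replicate number within a stimulation state (black, unstimulated; red, isoproterenol). Tfrc lies below 100% in all 12 gapmer libraries and reaches 32.1% in 1 of them, Cp lies below 100% in all 12, and Slc39a14 lies above 100% in all 12 with its peaks under LNA1.

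The sequences of the gapmers are shown because Tfrc was the 1 gene of the 10 with a long complementary stretch to either of them. The search was made after the Tfrc values had been seen, over the annotated transcripts of all 10 genes, without introns. Capitals mark the longest uninterrupted complement. For LNA1 it spans 12 bases in the Tfrc coding sequence at chr16:32619105-32619116, and 0.128% of protein-coding genes hold a run as long. For LNA2 it spans 11 bases at chr16:32628526-32628536, also coding, and 0.109% of protein-coding genes hold a run as long. Both sites are on the plus strand of GRCm38.
LNA1: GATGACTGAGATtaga
Tfrc at the LNA1 run: cgccATCTCAGTCATC
LNA2: AAGTAGCACGGcgttg
Tfrc at the LNA2 run: tacttCCGTGCTACTT
ctrlA: aacacgtctatacgc

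In the other 9 genes the longest run was 9 bases for LNA1 (Slc40a1) and 8 bases for LNA2, and ctrlA matched Tfrc over 8 bases. The target Gm15551 is complementary to LNA1 and to LNA2 over all 16 bases. Tfrc was the 1 protein-coding gene that reached these lengths for both gapmers. Tfrc prompted the search and set both lengths, so it is left out of the counts that follow. Of the other 16 tested genes with a run of at least 12 bases to LNA1, 0 were called lower with LNA1, and their median log2 fold change was -0.05, against -0.02 over all genes. With the replicate block 1 was called lower (Cenpl). Of the other 16 with a run of at least 11 bases to LNA2, 1 was called lower with LNA2 (Utrn), and their median was -0.33 against -0.02. With the block 4 were called lower (Utrn, Arf3, H2aw and Rreb1). Of all genes, 0.0401% were called lower with LNA1 and 0.442% with LNA2, and 0.355% and 1.75% with the block. These lists were made after values were seen and carry no test. The part of these runs in the Tfrc level was not tested.

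Cp, the secreted ferroxidase, is on the plus strand of chromosome 3 (chr3:19957054-20009145, ENSMUSG00000003617.16). Its largest differences went with isoproterenol. With ctrlA it was at 24.8, 19.8 and 12.4 CPM in unstimulated cells and at 8.13, 5.92 and 4.29 CPM after isoproterenol (replicates 2, 3 and 4). With LNA1 the values were 20.7, 13.4 and 7.73 CPM unstimulated and 6.48, 4 and 3.34 CPM stimulated. With LNA2 they were 14.7, 10.2 and 9.1 CPM unstimulated and 5.89, 3.62 and 2.77 CPM stimulated. In each gapmer all stimulated libraries lay below all unstimulated ones, and across gapmers only the stimulated ctrlA library numbered 2 exceeded an unstimulated library, that of LNA1 numbered 4.

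Averaged over the gapmers, Cp had 14.8 ± 5.82 CPM (SD, n = 9) without and 4.94 ± 1.76 CPM (n = 9) with isoproterenol, a log2 fold change of -1.57 ± 0.23 (SE). Each stimulated library was at 29.9% to 43.2% of its unstimulated partner, in 9 of 9 pairs. The log2 fold change was -1.63 ± 0.40 with ctrlA, -1.60 ± 0.40 with LNA1 and -1.48 ± 0.41 with LNA2. It was -1.59 in the libraries numbered 3 and 4 alone. Over all genes tested, 1.13% were lower without overlap within all 3 gapmers and 1.18% were called lower after isoproterenol. Cp was chosen for this difference, so that nothing can be read from its standing among these genes.

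The other members were nearer to their unstimulated level. Of the 10 genes, Cp was the 1 that lay below or above without overlap within all 3 gapmers, where 1.46% of all genes lay above in this way. With the gapmers pooled, no member separated the 9 stimulated from the 9 unstimulated libraries. Of all genes, 0.428% were lower and 0.756% were higher without overlap. Ftl1, the ferritin light chain, was higher after isoproterenol in 9 of 9 pairs, at 121% to 138% of its partner, with 1350 ± 295 CPM (n = 9) unstimulated and 1760 ± 372 CPM stimulated and a log2 fold change of 0.38 ± 0.15. Fth1, the ferritin heavy chain, was higher in 7 of 9 pairs (0.16 ± 0.11). Aco1, which is also the cytosolic aconitase, was lower in 9 of 9 pairs, at 65.5% to 83.3% of its partner, with 492 ± 86.3 CPM unstimulated and 367 ± 75.1 CPM stimulated (-0.42 ± 0.15). In all 3 of these genes the 2 states overlapped when all libraries were pooled, and the libraries numbered 2 stood higher for Ftl1 and lower for Aco1 within each group.

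Among the importers, Slc11a2 was lower in 8 of 9 pairs (log2 fold change -0.19 ± 0.14) and Tfrc in 6 of 9 (-0.18 ± 0.16). With ctrlA the Tfrc level was 492 ± 65.8 CPM unstimulated and 493 ± 37.6 CPM stimulated (n = 3 each). Ireb2, the second regulatory protein, was lower in 6 of 9 pairs (-0.08 ± 0.11). Of the genes at the floor, Trf was lower in 8 of 9 pairs (-1.04 ± 0.38), with 1 to 16 counts per unstimulated library and 1 to 7 per stimulated library. Heph was lower in 9 of 9 pairs (-1.08 ± 0.47, from a fit without a filter), with 1 to 20 counts per unstimulated and 0 to 11 per stimulated library. For Slc40a1 the difference was -0.22 ± 0.47 and 5 of 9 pairs were lower.

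**Figure D3:**
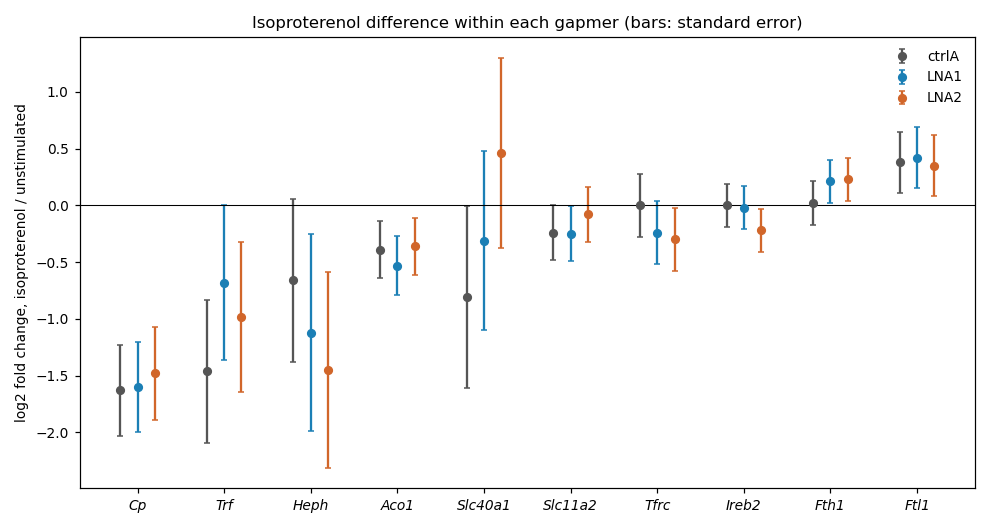
Log2 fold change of isoproterenol against unstimulated for each of the 10 genes within each gapmer (point, estimate from the fit; bar, standard error), with Heph and Slc40a1 from a fit without a filter. Cp lies at -1.63, -1.60 and -1.48, Aco1 lies below 0 and Ftl1 above 0 under all 3 gapmers, and the bars of Trf, Heph and Slc40a1 are wide.

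The difference made by isoproterenol was then compared between gapmers, which is not the contrast for which Cp was put forward. For the 8 genes tested it differed from that with ctrlA by log2 values of -0.25 to 0.78 with LNA1 and of -0.31 to 0.48 with LNA2. Trf, with few counts, held the upper end of both ranges. In fits without 1 library its value ran from 0.35 to 1.75 with LNA1 and from -0.02 to 1.15 with LNA2. For Cp the difference was 0.03 ± 0.57 with LNA1 and 0.15 ± 0.56 with LNA2 (edgeR adjusted p = 1.0 for both). The blocked fit gave 0.06 ± 0.19 and 0.13 ± 0.20 (adjusted p = 1.0 and 0.89). In edgeR, 0% of all genes were called in either interaction, with 105 and 116 genes at an unadjusted p below 0.05, of which 0 were members, and DESeq2 called 0 and 2 genes.

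The gapmer comparisons of Cp ran lower as well. The mean of Cp was 12.5 ± 8.17 CPM under ctrlA (SD, n = 6), 9.28 ± 6.65 under LNA1 and 7.71 ± 4.51 under LNA2, and the groups overlapped in both states. It was below its ctrlA partner in 6 of 6 pairs with LNA1 (62.3% to 83.5% of the partner) and in 6 of 6 pairs with LNA2 (51.6% to 73.4%). The log2 fold change was -0.43 ± 0.28 for LNA1 (adjusted p = 1.0) and -0.67 ± 0.28 for LNA2 (adjusted p = 0.372). With the replicate block, Cp was called for LNA2 (-0.66 ± 0.10, adjusted p = 0.000221) and was below the limit on fold for LNA1 (-0.44 ± 0.10, adjusted p = 0.00925). LNA2 and LNA1 differed by -0.24 ± 0.28 (adjusted p = 0.997).

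The remaining tested members were not called between gapmers, with or without the block. For LNA2 against ctrlA the log2 fold change was 0.09 ± 0.13 for Fth1, -0.12 ± 0.19 for Ftl1, -0.07 ± 0.18 for Aco1, -0.17 ± 0.14 for Ireb2 and 0.03 ± 0.17 for Slc11a2. For LNA1 against ctrlA these values were 0.04 ± 0.13, -0.19 ± 0.19, -0.05 ± 0.18, -0.04 ± 0.14 and -0.09 ± 0.17 in the same order. Trf, with few counts, had -0.28 ± 0.46 for LNA2 and -0.45 ± 0.47 for LNA1. In fits without 1 library the Trf values ran from -0.53 to 0.06 for LNA2 and from -0.95 to -0.12 for LNA1. For Ftl1 the LNA1 value ran from -0.32 to -0.08. Ftl1 was lower than its ctrlA partner in 6 of 6 pairs with either gapmer, at 80.9% to 94.5% of it with LNA1 and 88.6% to 97.3% with LNA2, and in the blocked fit of LNA1 its adjusted p was 0.0094 at a log2 fold change of -0.20. Heph was lower in 6 of 6 pairs with either gapmer, with means of 0.594 CPM (ctrlA), 0.295 CPM (LNA1) and 0.335 CPM (LNA2), but exact two-sided permutation tests gave p = 0.12 and p = 0.17 (0.51 for both after adjustment over 6 comparisons; the smallest p the design allows is 0.005). These tests did not use the replicate number. An exact test added after the data were seen, which exchanged gapmers only between libraries with the same number and state, gave p = 0.0312 for both gapmers, the smallest it can give, and 0.0938 after adjustment over 6 comparisons, which 2 values at that minimum cannot bring below 0.05. For Slc40a1 the p values of the first exact test were 0.645 and 0.66, and those of the second were 0.656 and 0.625. Both genes are at a depth that limits what can be detected.

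**Figure D4:**
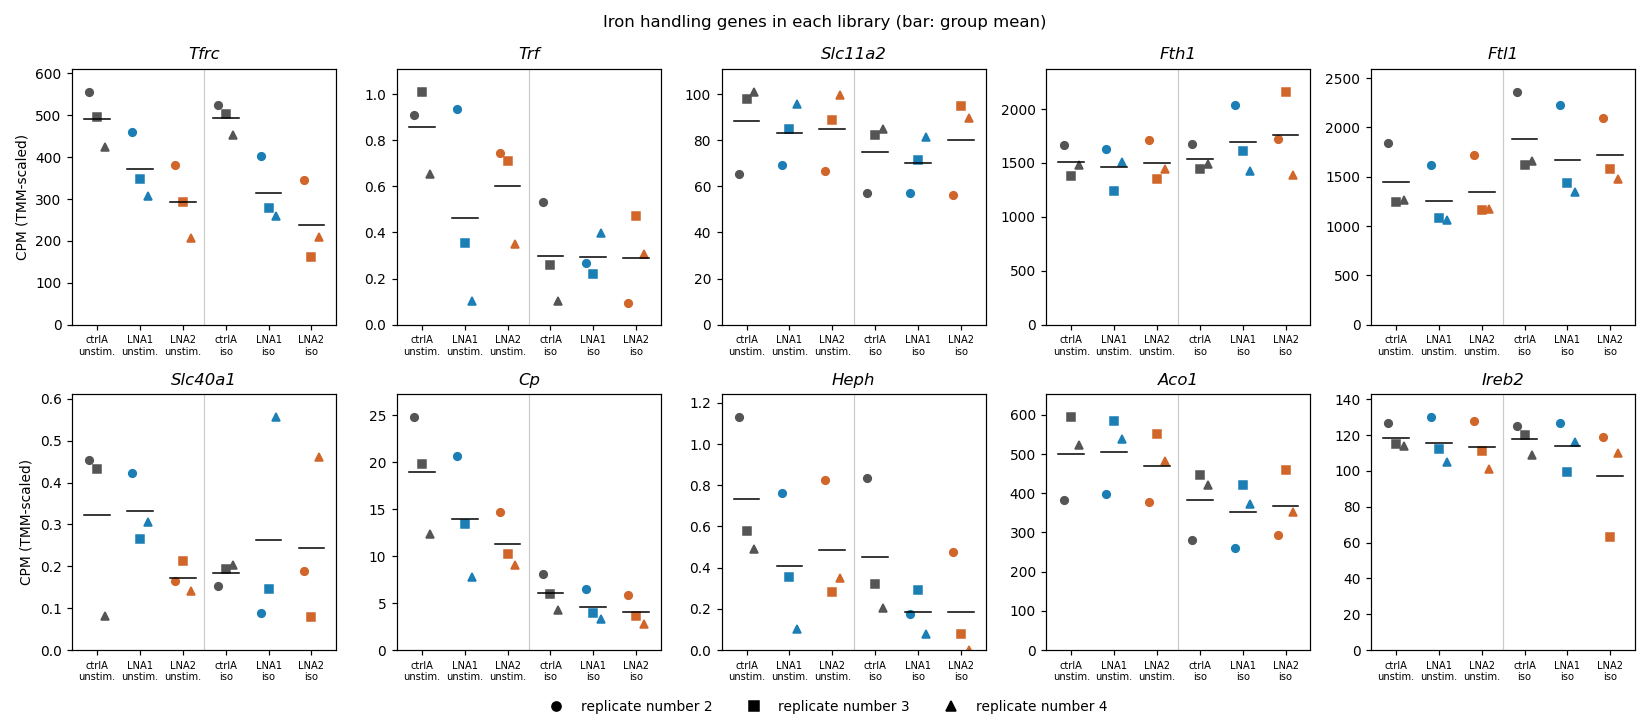
CPM of each of the 10 genes in every library, by group, on linear axes that start at 0 (marker shape, replicate number; bar, mean of the 3 libraries). Tfrc steps down from ctrlA to LNA1 to LNA2 in both states, Cp is lower in the stimulated groups at the right of its panel, and the libraries numbered 2 lie low for Slc11a2 and Aco1 and high for Ftl1.

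How much of the variation belonged to gapmer, stimulation or replicate number differed between the genes. Of the sum of squares of log2 CPM over the 18 libraries, the gapmer accounted for 60.4% in Tfrc and for 0.6% to 19.0% in the other 9 genes. Stimulation accounted for 70.0% in Cp, 38.8% in Aco1 and 31.5% in Ftl1. Cp was chosen for its difference with isoproterenol, so nothing can be read from its share for stimulation. The replicate number accounted for 78.9% in Slc11a2, 61.2% in Ftl1 and 57.1% in Aco1. Slc11a2 was at 56.1 to 69.3 CPM in the libraries numbered 2 and at 71.4 to 101 CPM in the rest, and Ftl1 was at 1620 to 2360 CPM in the libraries numbered 2 and at 1060 to 1660 CPM in the rest. Aco1 was at 260 to 397 CPM in the libraries numbered 2 and at 351 to 594 CPM in the rest. The libraries numbered 2 are those with the higher mitochondrial share, and the part of RNA quality in these levels was not tested.

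Several readings are limited by overlapping genes. Of the exon bases of Ftl1, 26.5% lie opposite exons of Gm10252 (0.979 to 3.89 CPM, against 1060 CPM or more for Ftl1), and 1.1% of those of Cp lie opposite exons of Hps3 (14.9 to 27.3 CPM). Hps3 was called in neither direction after isoproterenol (log2 fold change -0.29 ± 0.10, edgeR adjusted p = 0.157). Slc11a2 shares 6.3% of its exon bases with Gm5475 (0.076 to 0.715 CPM) and Heph 0.4% with Hsf3 (at most 0.177 CPM), both on the opposite strand. Of the exon bases of Trf, 63.5% also belong to Gm20425 on the same strand, so its counts are uncertain. Whether the quantification used strand is not stated.

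The genes whose level followed that of Cp most closely over the 18 libraries, after the mean of each replicate number was removed, were Aldh1a7 (Pearson r = 0.977), Ifngr1 (0.974), Aldh1a1 (0.971), Sult1a1 (0.965) and Dlc1 (0.965), out of 10413 genes with a mean of at least 5 CPM. Aldh1a7 and Aldh1a1 are near-identical aldehyde dehydrogenases that can share reads, and Ifngr1 is a chain of the interferon gamma receptor. Aldh1a7 averaged 292 CPM with ctrlA unstimulated and 130 CPM with ctrlA after isoproterenol. For Tfrc they were Atp5c1 (0.970), a subunit of the ATP synthase, Pola1 (0.969), a subunit of DNA polymerase alpha, Hsdl2 (0.965), Lims1 (0.963) and BC004004 (0.961). In unstimulated cells the mean of Atp5c1 was 363 CPM under ctrlA, 336 under LNA1 and 319 under LNA2, a smaller step than that of Tfrc. The points share their libraries. Stimulation and gapmer were not removed, so the values for Cp include the difference for which it was chosen. These correlations are descriptions.

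Markers of other cell types were at low levels, with some exceptions. The hepatocyte genes Alb and Ttr, which mark the main source of plasma ceruloplasmin and transferrin, did not exceed 0.19 and 0.076 CPM. Of the other 4 hepatocyte genes, Apoa1 averaged 1.65 CPM and Cyp2e1 0.654 CPM, while Serpina1a and Afp did not exceed 0.255 CPM. Without the block none of the 6 was called, while with it Apoa1 was called higher with LNA1 against ctrlA (unblocked log2 fold change 0.88), lower with LNA2 against LNA1 (-0.95) and lower with isoproterenol (-0.94). Of 5 endothelial genes, only Pecam1 averaged at least 1 CPM (2.56 CPM). Of 6 muscle genes, Des (7.84 CPM) and Acta1 (2.67 CPM) did so, whereas Myog and Myod1 did not exceed 0.163 CPM. Under ctrlA the summed muscle genes were at 6.18 to 8.8 CPM unstimulated and at 10.5 to 15.3 CPM after isoproterenol, where Cp was lower, and Des was called higher (log2 fold change 0.81), as was Acta1 in the blocked fit only (unblocked 0.69). Of 6 erythroid genes in the table, 0 averaged 1 CPM. Of 8 macrophage genes, only Cd68 averaged at least 1 CPM (7.83 to 42.4 CPM), whereas Ptprc stayed below 0.26 CPM and Adgre1 below 0.21 CPM. Csf1r averaged 0.628 CPM and reached 2.31 CPM, and with LNA2 its unblocked log2 fold change was 1.73 relative to ctrlA and 2.15 relative to LNA1, both called in the blocked fit only. Cd68 was called higher after isoproterenol (log2 fold change 0.90). Between gapmers it was called with LNA2 only in the blocked fit (unblocked 0.40 for LNA1 and 0.88 for LNA2 against ctrlA), and the summed macrophage genes were at 8.51 to 13.2 CPM in unstimulated ctrlA libraries and at 14.2 to 28.9 CPM in unstimulated LNA2 libraries, where Tfrc was lower. The summed CPM of 8 adipocyte genes was 19000 to 31000 in unstimulated and 15400 to 23800 in stimulated libraries, and Adipoq was called lower after isoproterenol (log2 fold change -0.71). With ctrlA alone this sum was 22600 to 31000 CPM unstimulated, against 19000 to 26700 CPM with LNA2. The summed brown adipocyte genes, mostly Elovl3, were also lower with the gapmers after isoproterenol, at 498 to 550 CPM under ctrlA, 356 to 448 CPM under LNA1 and 356 to 425 CPM under LNA2. In unstimulated cells they were at 340 to 431 CPM, 257 to 355 CPM and 264 to 381 CPM, respectively, with overlap. No brown adipocyte gene was called between gapmers, with or without the block (Elovl3, -0.43 for LNA1 and -0.37 for LNA2 against ctrlA). The sum of 9 preadipocyte and fibroblast genes was 1130 to 1410 CPM in unstimulated and 1090 to 1630 CPM in stimulated libraries. In this list Ly6a was called higher after isoproterenol (1.58) and Pdgfra higher with LNA1 (0.89) and LNA2 (0.71). In the blocked fit only, Ly6a was also called higher with LNA2 against ctrlA (unblocked 0.57) and against LNA1 (0.43), and Col3a1 was called lower with LNA2 against ctrlA (-0.63), so that genes of this list were called in both directions with LNA2. The part of these marker genes in the levels of Cp and Tfrc was not tested.

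Around the 10 members, 100 further genes of iron uptake, storage, regulation, iron-sulfur assembly, haem and copper supply were found in the table, and 89 of them were tested. Against ctrlA, 1 was called with LNA1 (higher) and 0 with LNA2, where 0.442% and 1.42% of all genes were called, with 3 and 7 of the 89 at an unadjusted p below 0.05 (899 and 1587 of the 14949 genes) and median log2 fold changes of -0.09 and -0.05 against -0.02 over all genes in both. Between LNA2 and LNA1, 1 was called lower, against 0.589% of all genes. After isoproterenol 2 were called, both higher, where 3.2% of all genes were called and 2.02% were called higher, and the median was 0.03 against 0 over all genes. In the interactions 0 were called, with 0 and 1 at an unadjusted p below 0.05. DESeq2 called 2 of these genes for LNA1 and 0 for LNA2.

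The gene called most often was Slc39a14 (ZIP14), a plasma membrane importer of iron that is not bound to transferrin. In unstimulated cells the ctrlA libraries had 40.3, 50.6 and 54.2 CPM, those of LNA1 had 79.8, 79.7 and 109 CPM and those of LNA2 had 63.4, 63 and 74.9 CPM. After isoproterenol the values were 80.6, 92.2 and 97.6 CPM (ctrlA), 143, 157 and 201 CPM (LNA1) and 92.5, 99.8 and 114 CPM (LNA2). In both states all LNA1 libraries lay above all libraries of ctrlA, as for 1.34% of all genes, and of LNA2. Slc39a14 rose with LNA1 (log2 fold change 0.89 ± 0.12, adjusted p = 0.00619, higher in 6 of 6 pairs) and with isoproterenol (0.80 ± 0.10, adjusted p = 0.0002, 9 of 9 pairs). It was lower with LNA2 than with LNA1 (-0.56 ± 0.12, adjusted p = 0.042, 6 of 6 pairs), a call that did not hold in 16 of the 18 leave-one-out fits and was kept without the unstimulated ctrlA or the stimulated LNA1 library numbered 2. LNA2 against ctrlA gave 0.33 ± 0.12 (adjusted p = 0.298, and 0.000717 in the blocked fit at the same value, below the limit on fold). In mean level, Slc39a14 was highest with LNA1, while Tfrc, the importer of transferrin-bound iron, was lowest with LNA2. These orders were not compared by a test, and Tfrc was not called between LNA2 and LNA1.

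Smad7, an inhibitor of the BMP signalling that sets hepcidin in the liver, rose after isoproterenol from 6.16 ± 1.26 CPM to 9.5 ± 1.27 CPM (n = 9 each, log2 fold change 0.63 ± 0.12, adjusted p = 0.00553, edgeR). All stimulated libraries lay above all unstimulated ones, as for 0.756% of all genes. Hepcidin itself (Hamp) averaged 0.0183 CPM and was not tested.

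With the replicate block more of the 89 were called in 3 comparisons, at shares near those of all genes, and the following were named after their values had been seen. For LNA1 against ctrlA 3 were called, where 2.43% of all genes were, Slc39a14, Lcn2 (lipocalin 2, which binds siderophores; 0.61 ± 0.11) and the copper importer Slc31a1 (-0.59 ± 0.05, adjusted p = 1.18e-05). For LNA2 against LNA1 4 were called, where 4.11% of all genes were, Slc39a14, Lcn2 (-0.57 ± 0.11), the ferrireductase Steap3 (0.64 ± 0.09) and haem oxygenase Hmox1 (0.68 ± 0.07, adjusted p = 2.47e-05). Hmox1 averaged 96.6 CPM with LNA1 and 165 CPM with LNA2 in unstimulated cells, and 126 and 189 CPM after isoproterenol. For isoproterenol 6 were called, where 7% of all genes were, Slc39a14 and Smad7 together with Id1 (0.52 ± 0.08), the haem scavenger receptor Lrp1 (0.90 ± 0.09), the metalloreductase Steap4 (-0.77 ± 0.07) and haptoglobin (Hp, -0.89 ± 0.07). Hp binds free haemoglobin, and it averaged 27.9 CPM with ctrlA unstimulated and 13.5 CPM with ctrlA stimulated. In the fit of LNA2 against ctrlA 0 were called with the block, where 5.53% of all genes were.

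**Figure D5:**
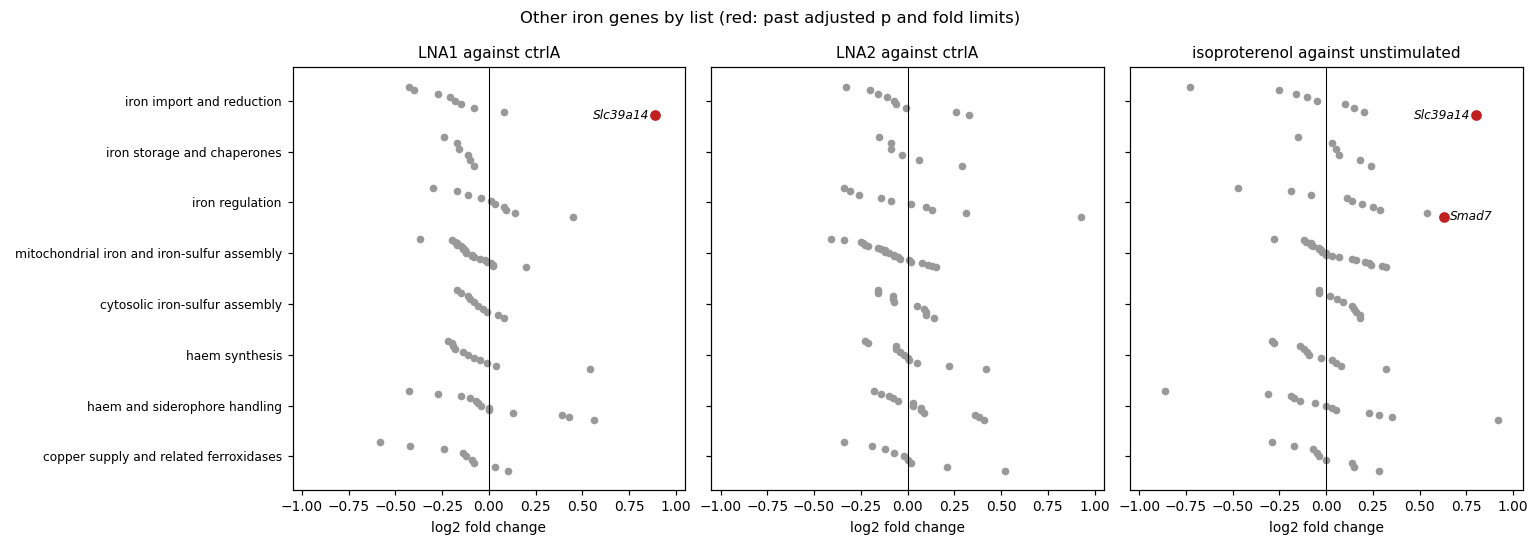
Log2 fold change of the 89 other iron genes tested, by list, for LNA1 against ctrlA, LNA2 against ctrlA and isoproterenol against unstimulated, from the fit without a block (each point a gene; red, past the limits on adjusted p and fold). Slc39a14 is red for LNA1 and isoproterenol, Smad7 is red for isoproterenol, and no gene is red for LNA2.

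The lists of mitochondrial iron and iron-sulfur assembly (21 genes tested), of cytosolic iron-sulfur assembly (10) and of haem synthesis (11) held 0 called genes in all 4 comparisons, with or without the block, where 0.442% to 3.2% of all genes were called without and 2.43% to 7% with it. Their median log2 fold changes were -0.12, -0.07 and -0.11 with LNA1, -0.10, -0.01 and -0.02 with LNA2, and 0.00, 0.11 and -0.09 with isoproterenol. At an unadjusted p below 0.05 there were 0, 0 and 0 of them with LNA1, 2, 0 and 0 with LNA2, and 2, 1 and 0 with isoproterenol, against 899, 1587 and 2242 of the 14949 genes in these comparisons. Of the 6 genes of iron storage and chaperones tested, which include Pcbp1, the iron chaperone that loads ferritin, and Ncoa4, the receptor for ferritin autophagy, 0 were called in any comparison. Mitochondrial ferritin (Ftmt) had a count of 0 in all libraries.

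The RefSeq promoters of GRCm38.p6, 250 bases before to 50 after a start, were listed for 6 of the members and were searched on both strands for the cAMP response element TGACGTCA, since isoproterenol raises cAMP. It was found in 0 of them, against 1.79% of all promoters listed. Its shorter core TGACG was in both listed promoters of Tfrc and in 1 of 2 of Fth1, against 20.8% of all promoters, and in none of those of Cp, Ftl1, Ireb2 and Aco1.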

How the data were processed

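Polyadenylated RNA of 18 libraries was sequenced as paired-end reads. The authors used cutadapt for trimming and salmon for quantification, with Gencode M22 (GRCm38) as reference, and the deposited values are expected counts per gene, already whole numbers and not scaled to depth. salmon divides reads that fit several transcripts, so genes with close copies are uncertain. The program versions and the use of strand are not given in the sources used here.

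The members and all gene lists were chosen with earlier results of these data known. The rule for named genes took all 10 members, the other iron genes called in a comparison, Gm15551, Ucp1, genes whose exons overlap a member, and the 5 genes with the highest correlation to Cp and to each member called between gapmers. Tests were made on the counts in R 4.3.3 with edgeR 4.0.16 (filterByExpr, minimum count 10 and total 15; TMM; glmQLFit with 1 term per group over all libraries; glmQLFTest, two-sided, Benjamini-Hochberg over 14949 genes). A gene was called at an adjusted p below 0.05 and an absolute log2 fold change above 0.5, and interactions at an adjusted p below 0.05. The authors used the same limit on fold, on fold changes shrunken with apeglm and with s-values in place of adjusted p. CPM are counts relative to the TMM-scaled library size. Log2 CPM used a prior count of 2. The fit was tested on simulated counts for LNA1 against ctrlA over 14638 genes. Of genes changed by a log2 value of 1, 55.6% were recovered, as were 93.9% of those changed by 2, with 6 false calls. The simulated replicates were independent, without an effect of replicate number, so the simulation did not test a fit to paired libraries.

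Replicate numbers 2, 3 and 4 recur in every group. The 45 pairs of libraries with the same number correlated in their deviations from the group means (r from 0.24 to 0.722). The 90 pairs with different numbers had r from -0.596 to 0.404, so the ranges overlapped. Since all 45 were above 0.1, the number was taken to pair the libraries. By number, r was 0.649 to 0.722 for 2, 0.252 to 0.505 for 3 and 0.24 to 0.47 for 4. Deviations were taken from means of 3 libraries, and those numbered 2 stood apart. This alone can make libraries numbered 3 and 4 deviate together, so the check cannot establish these numbers as separate blocks. The blocked fits rest on the pairing by number. No 2 libraries of a group were identical. The floor of 3 counts equals 0.17 to 0.306 CPM and covers counting error only. Coordinates and lengths were taken from GENCODE M21 (GRCm38), in which 99.53% of gene rows were found, and the gapmer sequences come from the primer and oligonucleotide list of the study. Alternatives were DESeq2 1.42.0, its size factors, other filters, the replicate block, subsets of libraries and another gene length.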

Additional observations from a re-analysis of the deposited data

How the results depend on the processing

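The replicate numbers were taken to pair the libraries, which the check could not establish for numbers 3 and 4. Outside the interactions, the alternative that moved the counts over all genes most was the replicate block. With it the genes called rose from 66 to 364 for LNA1 against ctrlA, from 213 to 826 for LNA2 against ctrlA, from 138 to 615 for LNA2 against LNA1 and from 479 to 1046 for isoproterenol. In the 3 gapmer comparisons the members called with the block were 1, 2 and 0, and it changed no other call of a member between gapmers. The other iron genes called with it were 3, 0, 4 and 6. Exchanging labels within replicate numbers gave Heph the smallest p that test allows (0.0312, exact permutation) in both comparisons with ctrlA. At 6 comparisons, 2 such values cannot pass the adjustment, so nothing is read from it. In the libraries numbered 3 and 4 alone, the same comparisons called 180, 738, 443 and 726 genes. Members called there were 1 for LNA1, and other iron genes were 4, 1, 5 and 5. DESeq2 called 133 genes for LNA1, 338 for LNA2, 232 for LNA2 against LNA1 and 2 for the response under LNA2, with 2 other iron genes each for LNA1 and for LNA2 against LNA1. The stricter filter called 38 genes for LNA1. A fit to only the groups compared called 125 genes for LNA2, where Tfrc was lost (adjusted p = 0.0722, edgeR), and 70 for LNA2 against LNA1, where 0 other iron genes were called. That count was also 0 without a filter.

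Leaving out 1 library at a time gave 32 to 82 genes for LNA1, 113 to 262 for LNA2, 73 to 153 for LNA2 against LNA1 and 0 to 1 for the response under LNA2. It gave 0 to 1 members for LNA2, 1 to 2 other iron genes for LNA1 and 0 to 1 for LNA2 against LNA1. Over all alternatives, 1075 of the log2 fold changes of members were counted as kept. Outside isoproterenol against unstimulated, this means the same direction and the same call. Of the rest, 12 lost and 3 gained a call, and 75 changed sign. For isoproterenol against unstimulated the members were given no call. There a value was counted as kept when it moved by less than the SD between replicates, rather than by direction alone. The sign changes were in values near 0 or with large errors. For LNA1 these were Aco1 (-0.13 to 0.05) and Fth1 (-0.03 to 0.10). For LNA2 they were Aco1 (-0.17 to 0.01), Slc11a2 (-0.05 to 0.14) and Trf (-0.53 to 0.06). For LNA2 against LNA1 they were Aco1 (-0.11 to 0.07, and 0.00 without a filter), Fth1 (-0.04 to 0.12), Ftl1 (-0.01 to 0.20) and Trf (-0.07 to 0.68). For the response to isoproterenol under LNA1 they were Aco1 (-0.33 to 0.03), Cp (-0.29 to 0.40), Ftl1 (-0.22 to 0.25, and -0.02 in numbers 3 and 4), Ireb2 (-0.10 to 0.07) and Slc11a2 (-0.17 to 0.16, and 0.01 in numbers 3 and 4). Under LNA2 they were Aco1 (-0.16 to 0.19, and -0.01 without a filter), Cp (-0.18 to 0.42), Ftl1 (-0.24 to 0.18, and 0.01 in numbers 3 and 4), Ireb2 (-0.37 to 0.01), Slc11a2 (-0.01 to 0.36) and Trf (-0.02 to 1.15). Trf fell below the filter, and has no value, in 2 of the fits without 1 library, under the stricter filter and in numbers 3 and 4 alone. For the counts that moved, the cause was not tested.

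Depth limits Heph, Trf and Slc40a1, and the target Gm15551, whose counts lie near the floor.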
